A study of Mus musculus with 4 samples.

Results

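The genes of the cytosolic ribosomal proteins were described in the hypothalamus of mice bearing C26 tumours. Members were the genes whose symbol is Rpl or Rps followed by digits and at most 1 letter, together with Rplp0, Rplp1, Rplp2 and Rpsa. Pseudogenes and the S6 kinase genes were left out. The rule found 59 genes among the 19938 genes that had a probe set with exactly 1 gene symbol. Of these, 22 encode proteins of the small subunit, 34 proteins of the large subunit and 3 the P proteins of the stalk. In the RefSeq table of the mouse, 81 protein-coding genes have symbols of this form, and 58 of them were members. The other member, Rps4l, is listed there as a transcribed pseudogene, and it is kept because the rule names it. The remaining 23 were not analysed here, and 16 of them occur only in probe sets that carry the symbols of several genes.

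The ribosome is built from a small subunit, which binds the mRNA and reads its codons, and a large subunit, which joins the amino acids and holds the tunnel through which the new chain leaves. Each ribosomal protein is made from its own gene, and most are present once per ribosome. Their mRNAs usually begin with a run of pyrimidines, the terminal oligopyrimidine or TOP tract, through which the mTORC1 kinase raises their translation when nutrients are plentiful. In neurons ribosomes supply the cell body, dendrites and axons with new protein.

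The mice were male CDF1 animals, a cross of BALB/c and DBA/2, aged 10 to 11 weeks. C26 is a colon adenocarcinoma line of the mouse that is used to study cancer cachexia, the wasting that accompanies some tumours. Tumour cells were injected under the skin in 0.2 ml of buffered saline at 500000 (0.5M), 1000000 (1M) or 2000000 (2M) per mouse, control mice received the saline alone, and the hypothalamus was taken on day 20. Each group was 1 array, made from pooled RNA of 4 control mice, 4 mice of 0.5M and 3 mice of 1M, and from 1 mouse of 2M, so that no group had a replicate. The title of the 2M sample calls it pooled, while its source entry gives 1 animal, and the latter is followed here. Values are log2 expression values that the authors made with RMA. The median over all probe sets lay between 6.72 and 6.77 in the 4 arrays, and pairs of arrays correlated at 0.984 to 0.994 across probe sets. Of the 14 hypothalamic marker genes sought, 13 had a value, and 13 passed the filter on low values, which was a mean over the 4 arrays of at least 6.59. RMA aligns the arrays to a common distribution, so a change shared by all transcripts cannot be seen. In a whole tissue, fewer cells that carry an mRNA and less of it per cell cannot be told apart.

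Ribosomal protein genes lay on both sides of control. The median member stood 0.01 log2 from control at 0.5M, -0.01 at 1M and 0.05 at 2M, against -0.01, 0.07 and 0.03 for all genes. The SD over members of the mean difference of the 3 tumour-bearing arrays was 0.20 log2, against 0.19 over all genes. The interquartile range was 0.29 log2, against 0.22 over all genes, and the mean differences ran from -0.25 for Rpl36a to 0.52 for Rpl37a. In all 3 tumour-bearing arrays 23 members lay above control, 39% of them, where 33.2% of all genes did. A further 19, or 32.2%, lay below control in all 3, where 22.5% of all genes did. Past the filter the contrast below control was smaller. There 40% of members and 33.4% of genes lay above control in all 3, and 32.7% and 27.3% below. These counts share 1 control array, so they are not 3 separate observations.

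**Figure D1:**
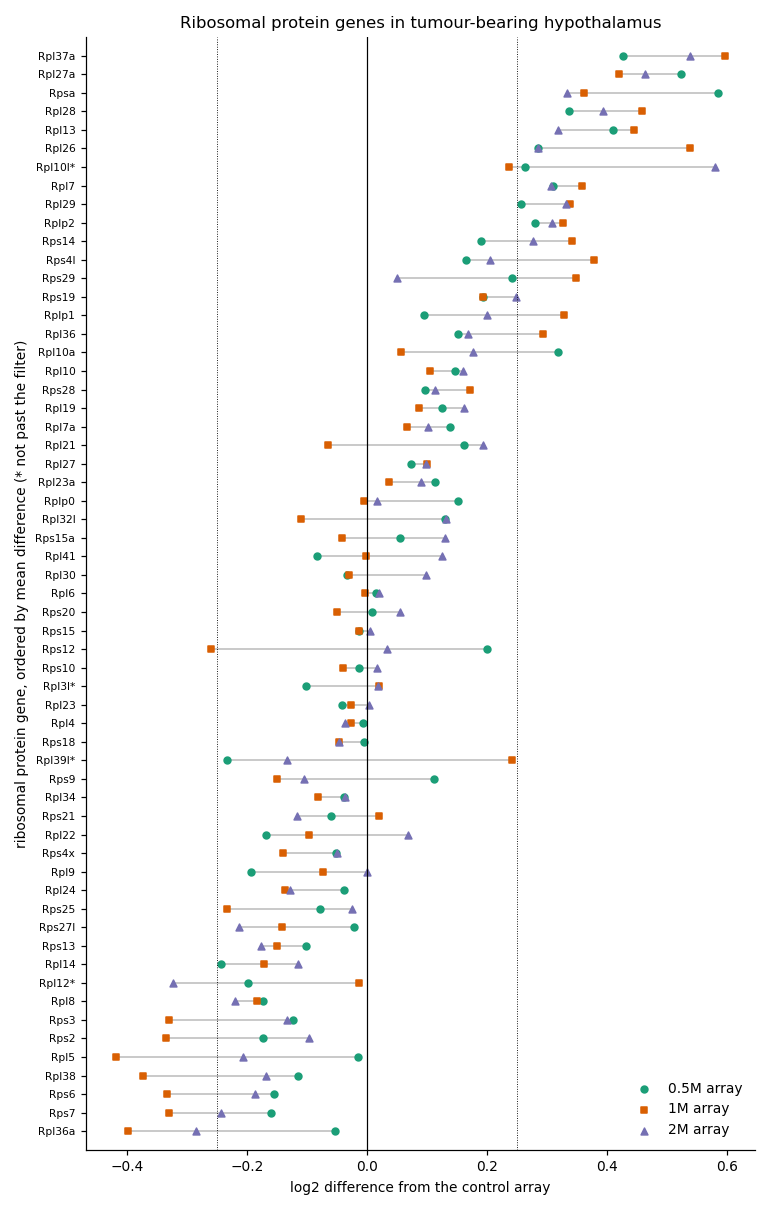
Difference from the control array in log2 (x axis) for each of the 59 ribosomal protein genes (y axis, ordered by the mean of the 3 differences). Points are the 0.5M, 1M and 2M arrays, grey lines span them, dotted lines mark 0.25 log2 in either direction, and stars mark the 4 genes that did not pass the filter. The genes form a continuous series from -0.25 for Rpl36a to 0.52 for Rpl37a.

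In limma, which compared the 3 tumour-bearing arrays with the control array over all 11963 genes past the filter, 0 of the 55 members that passed the filter were called (0.0502% of all genes were called higher and 0% lower). The smallest adjusted p among members was 0.362 in limma. At an unadjusted p under 0.05, limma gave 10 members above control and 0 below, 18.2% and 0% of the 55, where 6.19% and 4.61% of all genes were found. The spread in this test is that between cell numbers, with 2 residual degrees of freedom, and it takes the control array, of which there is 1, to vary as much as they do.

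A group of 9 members stood at least 0.25 log2, a 1.19-fold difference, above control in each of the 3 tumour-bearing arrays. They were 15.3% of the members, where 3.37% of all genes met this rule. This rule was chosen after the values were seen, so the count is a description. No member stood that far below control in all 3, where 1.98% of all genes did. The group comprised Rpl37a, Rpl27a, Rpl28, Rpl13, Rpl26, Rpl7 and Rpl29 of the large subunit, Rplp2 of the stalk and Rpsa of the small subunit. With 1 control array, a low control value and higher tumour-bearing values cannot be told apart.

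Rpl37a encodes a zinc finger protein of the large subunit. Its expression value was 10.34 in the control, 10.77 at 0.5M, 10.94 at 1M and 10.88 at 2M. All 3 tumour-bearing arrays lay above control, by 0.52 ± 0.09 log2 on average (SD over the 3 tumour-bearing arrays, here and below), a 1.43-fold difference (limma adjusted p = 0.362). Rpl27a, a core protein of the large subunit, stood at 9.58 in the control and at 10.11, 10.00 and 10.05 in the tumour-bearing arrays. The difference was 0.47 ± 0.05 log2, or 1.38-fold, and here the 0.5M array was highest (limma adjusted p = 0.362). Rpsa encodes a small-subunit protein that is also known as the laminin receptor. Its value was 9.53 in the control, 10.12 at 0.5M, 9.89 at 1M and 9.87 at 2M. The 0.5M array thus stood apart from the other tumour-bearing arrays, which still lay above control (0.43 ± 0.14 log2, limma adjusted p = 0.375).

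Rpl28, a protein of the large subunit that budding yeast lacks, was measured at 11.80 in the control and at 12.14, 12.26 and 12.19 in the tumour-bearing arrays, a difference of 0.40 ± 0.06 log2. Rpl13 stood at 8.44 in the control and 8.85, 8.88 and 8.76 with tumour, a difference of 0.39 ± 0.07 log2. Both genes were separated from control by a gap wider than the range of their own tumour-bearing values. Rpl26, a protein at the exit of the peptide tunnel, was 8.18 in the control and 8.46, 8.72 and 8.46 with tumour, so that the 1M array was highest (0.37 ± 0.15 log2). Rpl7 was 8.45 in the control and 8.75, 8.80 and 8.75 with tumour (0.32 ± 0.03 log2). Rpl29, whose product also binds heparin, was 10.12 in the control and 10.37, 10.45 and 10.45 with tumour (0.31 ± 0.05 log2). Rpl29 and Rpl7 were the more even of these genes across cell numbers, and none of the 5 passed limma over all genes.

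**Figure D2:**
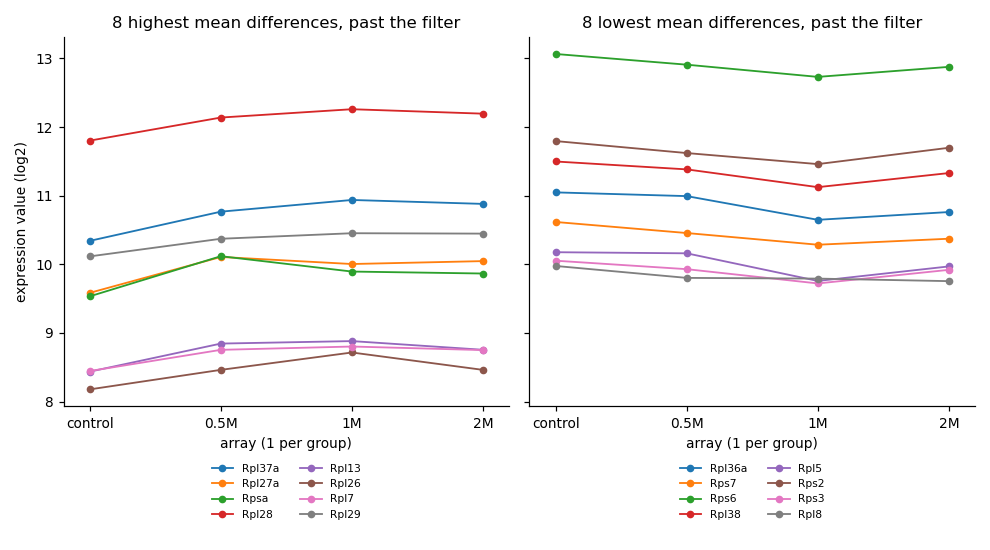
Expression value in log2 (y axis) in the control, 0.5M, 1M and 2M arrays (x axis, 1 array per group) for the 8 members past the filter with the highest mean difference from control (left) and the 8 with the lowest (right). On the left each control point lies below its 3 tumour-bearing points, as for Rpl37a at 10.34 against 10.77 to 10.94, and on the right the 1M point is the lowest of the line for 7 genes and the 2M point for Rpl8.

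At the other end, the 8 lowest members were Rpl36a, Rps7, Rps6, Rpl38, Rpl5, Rps2, Rps3 and Rpl8, and each lay below control in all 3 tumour-bearing arrays. Their mean differences ran from -0.25 to -0.19 log2, so they were nearer to control than the highest members. Rps6 encodes the small-subunit protein that S6 kinase phosphorylates downstream of mTORC1. Its value was 13.06 in the control, 12.91 at 0.5M, 12.73 at 1M and 12.88 at 2M, a difference of -0.23 ± 0.09 log2 (limma adjusted p = 0.486). The 1M array was the lowest and the other tumour-bearing arrays lay close together. Rps7, a small-subunit protein that can also bind the p53 regulator Mdm2, was 10.62 in the control and 10.46, 10.29 and 10.37 with tumour (-0.25 ± 0.09 log2, limma adjusted p = 0.46).

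Rpl5 carries the smallest ribosomal RNA of the large subunit together with Rpl11, and binds Mdm2 when ribosome assembly is disturbed. It was 10.18 in the control and 10.16 at 0.5M, but 9.76 at 1M and 9.97 at 2M (-0.21 ± 0.20 log2). The 0.5M array was thus close to control, and the 1M and 2M arrays were lower. Rpl36a, encoded on the X chromosome, followed the same order, at 11.05 in the control and 10.99, 10.65 and 10.76 with tumour (-0.25 ± 0.18 log2). Rpl38, which mouse embryos need for the translation of Hox mRNAs, was 11.50 in the control and 11.38, 11.12 and 11.33 with tumour. For Rps2 and Rps3, both near the entry of the mRNA channel, the values were 11.80 and 10.05 in the control. Rps2 stood at 11.62, 11.46 and 11.70 with tumour, and Rps3 at 9.93, 9.72 and 9.92. Rpl8, a protein near the catalytic centre of the large subunit, was the most even of the lower members, at 9.98 in the control and 9.80, 9.79 and 9.76 with tumour (-0.19 ± 0.02 log2, limma adjusted p = 0.48).

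By subunit, the small-subunit members had a median of the mean difference of -0.02 log2. Of these 22, 6 lay above control and 9 below it in all 3 arrays (27.3% and 40.9%). The shares were 33.2% and 22.5% of all genes, and 33.4% and 27.3% of the genes past the filter. The large-subunit members had a median of 0.03 log2, with 15 of 34 above and 10 below (44.1% and 29.4%). By array the medians were -0.01, -0.05 and -0.01 log2 for the small subunit at 0.5M, 1M and 2M, and 0.04, 0.01 and 0.10 for the large subunit. The 2 subunits overlapped over nearly the whole range, and the difference between them was not tested. At an unadjusted p under 0.05, limma gave 2 small-subunit, 7 large-subunit and 1 stalk member above control, 9.09% of the 22 small-subunit and 23.3% of the 30 large-subunit members past the filter, against 6.19% of all genes.

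**Figure D3:**
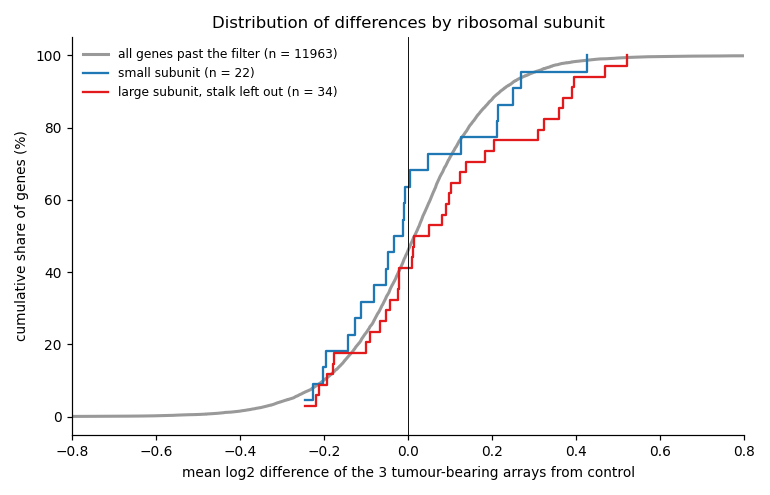
Cumulative share of genes in percent (y axis) against the mean log2 difference of the 3 tumour-bearing arrays from control (x axis), for 22 small-subunit members, 34 large-subunit members and the 11963 genes past the filter. Both subunits start near -0.25 log2, and the large-subunit curve lies to the right, with medians of 0.03 and -0.02 log2.

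In the stalk, which recruits the translation factors to the ribosome, the P proteins differed from each other. Rplp2 was 6.96 in the control and 7.24, 7.28 and 7.27 with tumour, 0.30 ± 0.02 log2 above control. Rplp1, its partner in the stalk, was 12.08 in the control and 12.18, 12.41 and 12.28 with tumour (0.21 ± 0.12 log2). Rplp0, which anchors the stalk and is often used as a reference gene for RT-PCR, was 9.83 in the control and 9.98, 9.82 and 9.84 with tumour (0.05 ± 0.08 log2). The mean difference of Rplp0 was smaller than its SD, while every tumour-bearing value of Rplp1 and Rplp2 exceeded control. Rpl12, at the base of the stalk, was 6.56 in the control and 6.36, 6.55 and 6.24 with tumour, below the filter and outside the test.

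Other members with well-known roles differed from control by less than the 9 that stood at least 0.25 log2 above it in every tumour-bearing array. Rps19, the gene most often mutated in human Diamond-Blackfan anaemia, was 8.87 in the control and 9.07, 9.07 and 9.12 with tumour (0.21 ± 0.03 log2, limma adjusted p = 0.464), above control in all 3 arrays. Rps4x, encoded on the X chromosome, was 10.32 in the control and 10.27, 10.18 and 10.27 with tumour. Rpl22, which developing T cells of the mouse need, was 7.98 in the control and 7.81, 7.88 and 8.05 with tumour, on both sides of control. Rpl41, the smallest ribosomal protein, was 11.94 in the control and 11.86, 11.94 and 12.07 with tumour. By the probe sets that stand for the genes, Rps15 had the smallest range over the 4 arrays, 0.02 log2, but its other probe sets stood 0.30 and 0.44 log2 above control.

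Paralogs with restricted expression gave low values. Rpl3l, which is known from heart and skeletal muscle, and Rpl10l and Rpl39l, known from testis, stood at 4.83, 4.73 and 3.94 in the control, and none passed the filter. Rpl10l was 5.00, 4.97 and 5.31 with tumour, and its difference of 0.58 log2 at 2M came from a single animal. Rpl39l was on both sides of control, at 3.71, 4.18 and 3.81. The pseudogene Rps4l was 7.34 in the control and 7.50, 7.72 and 7.54 with tumour. Rps27l, a paralog of Rps27 that p53 induces, was 8.04 in the control and 8.02, 7.90 and 7.83 with tumour, in the order of cell number (-0.13 ± 0.10 log2, limma adjusted p = 0.683).

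By size, few members lay 0.5 log2, a 1.41-fold difference, from control. Rpsa and Rpl27a did so at 0.5M (3.39% of members, 0.692% of all genes), Rpl37a and Rpl26 at 1M (3.39%, 3.21% of all genes) and Rpl37a and Rpl10l at 2M (3.39%, 1.78% of all genes). All were above control. By the probe sets that stand for the genes, no member lay 0.5 log2 below control. Of all genes, 0.697%, 1.59% and 1.23% did at 0.5M, 1M and 2M. With probe sets averaged, Rpl5 stood at -0.58 log2 at 1M, where 1 of its 5 probe sets stood at -1.09 and the others at -0.49 to -0.42. At 0.25 log2 the members above control numbered 11, 14 and 11 at 0.5M, 1M and 2M, or 18.6%, 23.7% and 18.6%, against 6.7%, 21.1% and 13.2% of all genes. Those below control numbered 0, 8 and 2, or 0%, 13.6% and 3.39%, against 7.8%, 8.21% and 8.48% of all genes.

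Among the tumour-bearing arrays, the contrast of 2M with 0.5M, which does not use the control, had a median over members of 0.00 log2, against 0.03 over all genes. The members' interquartile range was 0.11 log2, against 0.20 over all genes. Past the filter the sets were closer, with medians of 0.001 for members and -0.003 for genes. The interquartile ranges there were 0.11 and 0.16 log2. No member differed by 0.5 log2 (0.943% of all genes were higher and 0.381% lower), and at 0.25 log2 1 member was higher and 1 lower (1.69% each, 10.3% and 3.82% of all genes). The highest members were Rpl10l at 0.32, Rpl22 at 0.24, Rpl41 at 0.21, Rpl9 at 0.19 and Rpl30 at 0.13 log2. The lowest were Rpsa at -0.25, Rpl36a at -0.23, Rps9 at -0.22, Rps29 at -0.19 and Rps27l at -0.19. Values of Rpl9 were 11.84 in the control and 11.65, 11.77 and 11.84 with tumour, those of Rps9 9.87 and 9.98, 9.72 and 9.76, and those of Rps29 9.16 and 9.40, 9.51 and 9.21. Rpl9 at 2M was thus at the control value. Rps9 was above control at 0.5M in this probe set, while its other probe set stood at -0.13 log2 there and the mean of both at -0.01.

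The 1M array was the lowest of the tumour-bearing arrays for 28 of the 59 members and the highest for 18, or 47.5% and 30.5%, against 24.9% and 50.3% of all genes and 32% and 45% of the genes past the filter. Against 0.5M, 6 members were lower by at least 0.25 log2 (10.2%, 5.63% of all genes) and 2 were higher (3.39%, 19.5% of all genes). The low values included Rps12, at 9.07 in the control and 9.27, 8.81 and 9.11 with tumour. Differences of the 1M array varied with the level of a probe set across all genes. Their median was 0.15 log2 for the 4842 genes with a mean of 4 to 6, and -0.02 for the 1428 genes with a mean of 10 to 12. The 21 members in the latter range had a median of -0.03 log2. After a cyclic loess adjustment the 1M array was the lowest of the tumour-bearing arrays for 23 members (39%, 31.8% of all genes) and the highest for 24 (40.7%, 41.7% of all genes), so the difference from all genes was smaller. In that adjustment Rps6, Rpl5 and Rpl36a stood at -0.26, -0.39 and -0.36 log2 at 1M.

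In the limma fit of a trend with the number of injected cells, 0 of 55 members passed, as did 0% of all genes in either direction, and the smallest adjusted p among members was 0.761. At an unadjusted p under 0.05, limma gave 1 member upward and 0 downward (1.82% and 0%, where 3.34% and 3.18% of all genes were found). That member was Rpl37a, at 0.24 ± 0.10 log2 per 1000000 cells (SE, limma adjusted p = 0.761). Rpl28, Rpl29, Rpl36a and Rps27l followed, at 0.17, 0.15, -0.16 and -0.11 log2 per 1000000 cells. The control entered this fit as 0 cells, and 2M, from 1 animal, lies farthest from the other cell numbers.

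Several probe sets were available for 39 of the 59 members, and there were 215 probe sets in all, up to 14 for Rps12. Many ribosomal protein genes have processed pseudogenes of nearly the same sequence, so probe sets of a gene may measure the same transcripts, and 19 of the 215 held the same 4 values as another of their gene. Within a gene the mean difference from control varied over a median range of 0.14 log2. The widest range was 0.52 log2, for Rpl7a, with 0.10 in the probe set used and 0.63 in another. In 30 of the 39 genes every probe set lay on the same side of control. All 9 probe sets of Rpl27a were above control, by 0.32 to 0.58 log2, and all 9 of Rpl13, by 0.32 to 0.50. All 5 of Rpsa were above control, by 0.12 to 0.43, all 5 of Rpl28, by 0.24 to 0.40, and all 4 of Rpl7, by 0.04 to 0.32. All 8 probe sets of Rps6 were below control, from -0.28 to -0.17 log2, and all 5 of Rpl5, from -0.61 to -0.21.

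The probe set with the highest mean stood for each gene, and for Rpl7, Rpl28 and Rpsa it gave the highest difference of the gene's probe sets. With probe sets averaged these genes stood at 0.15, 0.28 and 0.27 log2. In 5 genes, Rpl21, Rpl9, Rps12, Rps15 and Rps28, probe sets lay on opposite sides of control and were over 0.25 log2 apart. Rps15 is the clearest case, with -0.01 log2 in the probe set used and up to 0.44 in another. For Rpl37a, Rpl26, Rpl29 and Rplp2 there was 1 probe set each. Over all 215 probe sets, the median differences were 0.11, 0.02 and 0.10 log2 at 0.5M, 1M and 2M. Above control in all 3 arrays were 108 of them and below it 51, or 50.2% and 23.7%, against 32.9% and 23.6% of all probe sets with 1 symbol. Counted by probe set the members thus lay more on the higher side than by gene (39% and 32.2%), and genes with many probe sets, such as Rpl13 and Rpl27a, weigh more in that count. Another 233 probe sets carry a ribosomal protein symbol together with other symbols. Their medians were 0.15, 0.04 and 0.12 log2, with 116 above and 58 below control in all 3 arrays (49.8% and 24.9%).

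**Figure D4:**
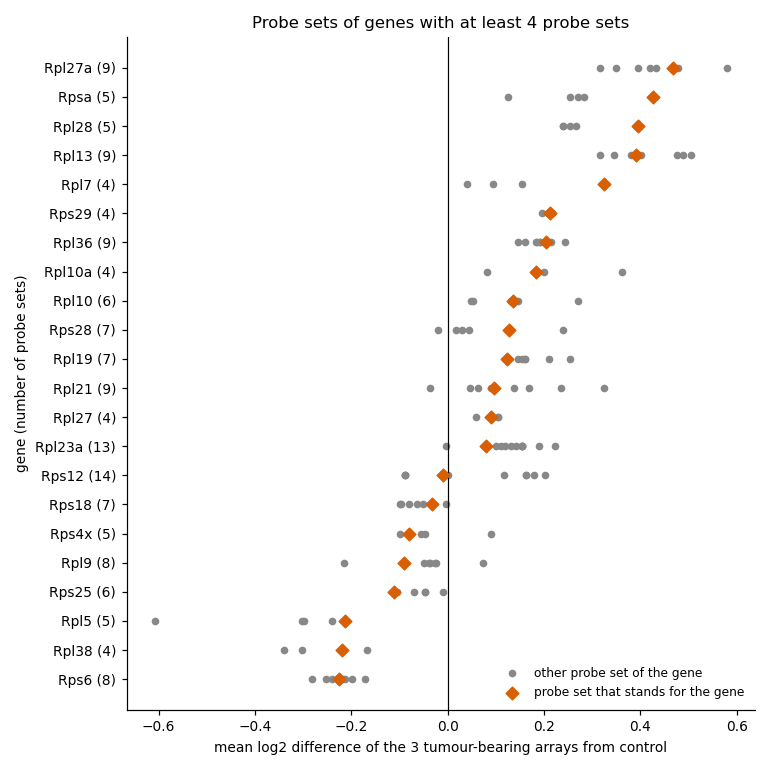
Mean log2 difference of the 3 tumour-bearing arrays from control (x axis) for every probe set of the members with at least 4 probe sets (y axis, number of probe sets in brackets). Orange diamonds are the probe sets that stand for the gene and grey points the others, and the 9 points of Rpl27a lie between 0.32 and 0.58 while the 8 of Rps6 lie between -0.28 and -0.17.

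The start of transcription was read for the members from RefSeq (mouse build GRCm38.p6), since the rule did not use the TOP tract described above. Windows were held for 47 members. From 5 bases before to 15 after the annotated start, on the transcribed strand, the letters CTTTT were found for 4 members, the letters CTTTC for 7, the letters TTCTT for 4 and the letters CCTTT for 4. These motifs overlap each other, and at least 1 of them was found for 11 of the 47 members (23.4%) and for 7.68% of all genes with a window. Fixed letters miss other runs of pyrimidines, such as the one in the window of Rpl14. The share of members with a TOP tract was therefore not measured. The letters CCGGAAG, bound by ETS factors, were found on either strand of windows of 300 bases, 250 before to 50 after the start, for 18 members (38.3%) and 9.93% of all genes. The letters AAGATGGC, bound by YY1, were found for 2 members (4.26%, 3.19% of all genes) and TATAAA for 6 (12.8%, 15.7% of all genes). The pyrimidine motifs were found for 4 of 15 members above control in all 3 arrays, 4 of 18 below it in all 3, and 3 of 14 others. Windows of 30 bases, 10 before to 20 after the start, are shown for some members of the higher and the lower group. The letters of the pyrimidine motifs are in capitals. Most windows shown hold a motif, unlike most members. Those of Rpl13, Rpl26 and Rpsa in the higher group and of Rps7, Rpl5 and Rps3 in the lower hold none and are not shown. The window of Rpl36a holds TATAAA, which is left in lower case.
Rpl27a (higher, chr7:109519185-109519214, plus strand): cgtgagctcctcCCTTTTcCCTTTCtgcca
Rpl28 (higher, chr7:4792955-4792984, plus strand): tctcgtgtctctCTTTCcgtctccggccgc
Rplp2 (higher, chr7:141447641-141447670, plus strand): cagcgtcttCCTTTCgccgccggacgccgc
Rpl37a (higher, chr1:72711250-72711279, plus strand): ctcgccggtctaaaaccgcgcatgcgcatt
Rps6 (lower, chr4:86857348-86857377, minus strand): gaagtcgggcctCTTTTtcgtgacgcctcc
Rpl38 (lower, chr11:114668570-114668599, plus strand): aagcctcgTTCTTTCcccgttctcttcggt
Rpl36a (lower, chrX:134585644-134585673, plus strand): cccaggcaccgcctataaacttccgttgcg

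Genes that work with the ribosome were set beside its proteins. Fau, whose product is a ubiquitin-like protein fused to a small-subunit protein, stood 0.10, 0.33 and 0.16 log2 above control in the order of cell number. Among 8 elongation factor genes, limma called 0 higher and 0 lower, with 0 at an unadjusted p under 0.05, and the median of the mean difference was 0.06 log2. Eef1a1, which brings aminoacyl-tRNA to the ribosome, stood at 0.09 log2 and Eif5a at -0.22. Among 26 initiation factor genes and other genes with TOP mRNAs, 0 were called, and the median was 0.04 log2. At an unadjusted p under 0.05, limma gave 1 higher and 1 lower (3.85% each, against 6.19% and 4.61% of all genes). Eif3i, a subunit of initiation factor eIF3, was 0.38, 0.39 and 0.29 log2 above control, and Eif4e, the cap-binding protein, was -0.11, -0.43 and -0.34 from it. Both directions were thus present among these genes too.

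Ribosome assembly genes had a median of -0.03 log2 over 40 genes, with 11 above and 16 below control in all 3 arrays (27.5% and 40%). The shares were 33.2% and 22.5% of all genes, and 33.4% and 27.3% of the genes past the filter. In limma 0 were called, with 1 higher and 3 lower at an unadjusted p under 0.05 (2.63% and 7.89% of those past the filter, against 6.19% and 4.61% of all genes). Rrs1, an assembly factor of the large subunit, was -0.61, -0.87 and -0.91 log2 from control, and Wdr12, of the same pathway, -0.17, -0.70 and -0.33. Nolc1, a nucleolar phosphoprotein, was 0.31, 0.43 and 0.50 log2 above control. Of 15 genes that signal to translation, 0 were called, with 2 higher and 0 lower at an unadjusted p under 0.05 (13.3% and 0%). Myc, which activates ribosome genes, was 0.41, 0.32 and 0.47 log2 above control, and Ddit4, an inhibitor of mTORC1 induced by stress, 0.20, 0.35 and 0.49, in the order of cell number. Rheb, the activator of mTORC1, was -0.10, -0.49 and -0.28 log2 from control.

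Mitochondrial ribosomal proteins and proteasome subunits served as comparable sets of complex subunits. The 77 mitochondrial ribosomal protein genes had a median of 0.00 log2 and an SD over genes of 0.19. In all 3 arrays 24 lay above control and 23 below (31.2% and 29.9%). The shares were 33.2% and 22.5% of all genes, and 33.4% and 27.3% of the genes past the filter. The 40 proteasome genes had a median of 0.02 log2 and an SD of 0.19, with 12 above and 12 below (30% each). In limma 0 genes of either set were called. At an unadjusted p under 0.05, 7 mitochondrial ribosomal protein genes were higher and 4 lower (9.59% and 5.48% of those past the filter), and 1 proteasome gene was higher and 4 lower (2.78% and 11.1%), where 6.19% and 4.61% of all genes were found. Differences between these sets and the cytosolic ribosomal proteins were not tested.

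**Figure D5:**
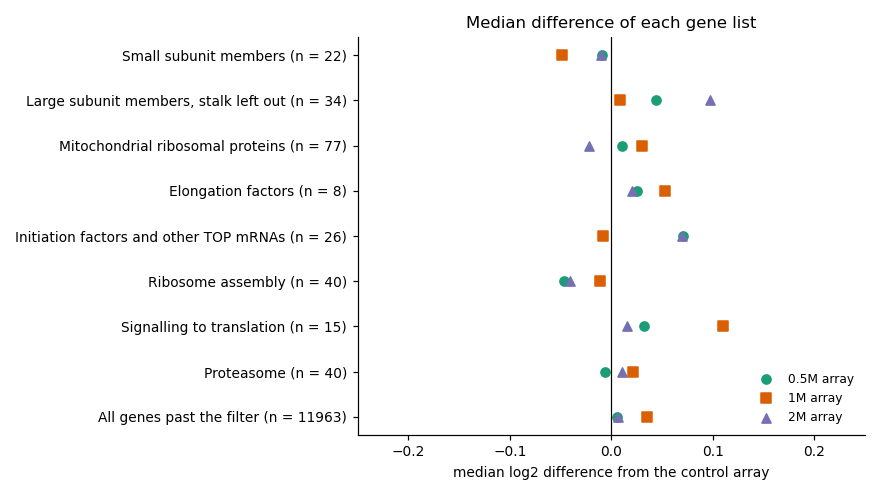
Median log2 difference from the control array (x axis) of each gene list (y axis, number of genes in brackets) at 0.5M, 1M and 2M. The 9 lists lie between -0.05 and 0.11 log2, with the small-subunit members at -0.01, -0.05 and -0.01 and the large-subunit members at 0.04, 0.01 and 0.10.

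Markers of cells and neighbouring tissue that a dissection can hold also differed between arrays, as did those of the hypothalamus itself. Hypothalamic markers had medians of 0.31, 0.28 and 0.35 log2 in the order of cell number. Of the 13, 9 were above control in all 3 arrays and 1 below (69.2% and 7.69%, against 33.2% and 22.5% of all genes). At an unadjusted p under 0.05, limma gave 7 higher (53.8%, against 6.19% of all genes), and 0 were called. Oxt (oxytocin) and Avp (vasopressin) stood 0.74 and 0.53 log2 above control on average, and Pomc at -0.29. Pituitary markers had medians of 0.33, 0.38 and 0.36 log2 in the order of cell number, with 5 of 6 above control in all 3 arrays. The growth hormone gene Gh stood 4.68 log2 above control at 0.5M. Cga was below control in all 3, at -0.05, -0.01 and -0.50 log2. Of the blood markers 2 had a value, and both were higher in all 3 arrays, Ppbp by 1.25 and Alas2 by 0.85 log2 on average. Microglial markers had medians of -0.22, -0.02 and -0.30 log2 with 4 of 6 below control in all 3 arrays, those of meninges and fibroblasts -0.26, -0.28 and -0.18 with 4 of 4 below, and those of tanycytes and radial glia -0.23, -0.30 and -0.25 with 2 of 4 below. Neuronal markers had medians of 0.04, -0.02 and 0.04 log2. The part of these shifts in the values of the ribosomal protein genes was not tested.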

How the data were processed

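Hypothalamic RNA of mice was measured on 4 arrays, 1 per group. The authors deposited log2 expression values per probe set, made with RMA, per the submitters' processing notes. Which software ran RMA, and which genome build it used, was not given in the sources used here. That they are log2 values was read from their range. The table held 35556 probe sets, of which the platform annotation gave 21789 with 1 symbol and 1621 with several, and 12146 were unnamed here. All 59 members matched RefSeq (GRCm38.p6) by Entrez number. The number of columns with no sample was 0.

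The probe set with the highest mean stood for a gene. Differences from control were taken on the log2 scale. Two-sided tests used limma 3.58.1 in R 4.3.3 (lmFit, eBayes, Benjamini-Hochberg over the genes past the 40th percentile, threshold 0.05) and were tested on simulated data. Tables were handled in Python 3.11.15 with pandas 2.3.3 and numpy 2.4.6, and figures drawn with matplotlib 3.10.9. The number of arrays limits the precision.

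The members and lists were chosen with earlier results of these data known. Named members were a fixed set with known roles, those 0.5 log2 from control in any array, the 8 highest and 8 lowest by mean difference, the 5 highest and 5 lowest by 2M minus 0.5M, the 5 smallest p per test and those whose probe sets disagreed. Up to 4 genes per related list could be named.
Alternatives changed the filter, normalization (cyclic loess), probe set rule, threshold and arrays.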

Additional observations from a re-analysis of the deposited data

How the results depend on the processing

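No limma call was made among members in any alternative fit, whether the filter, normalization, probe set rule or arrays were changed. At an unadjusted p under 0.05, these fits gave 7 to 11 members above and 0 to 3 below control for tumour-bearing against control. Without the 2M array more members reached an unadjusted p under 0.05 in the trend, in both directions. That fit rests on the control, 0.5M and 1M arrays alone. The shares of all genes were not counted in these alternative fits, so the counts say nothing particular to the members. The count 0.5 log2 from control at 0.5M was 1 with probe sets averaged, and at 2M it was 1 past the filter. At 1M it was 3 with cyclic loess and 3 with probe sets averaged. In the latter Rpl5 lay below control at -0.58 log2, with 1 of its probe sets at -1.09. At 0.25 log2 the count was 11, 22 and 13 at 0.5M, 1M and 2M, since the threshold is lower. The median member stood at 0.01 log2, the mean over members at 0.0542, and the median was -0.01 to 0.03 with an array left out. The count of members 0.25 log2 above control in every array was 8 with cyclic loess or averaged probe sets. With probe sets averaged these were not all the same members. Rpl7 then stood at 0.19, 0.11 and 0.17 log2, Rpl28 at 0.23 at 0.5M and Rpsa at 0.247 at 2M, so they no longer met the rule. With an array left out the count above was 9 to 10 and the count below 0 to 1, where Rpl36a was the 1 without the 0.5M array. Fewer arrays must then pass, so neither count can fall, and the shares of all genes were not counted. These last alternatives were chosen after seeing the data. Of 175 values of 35 named members under alternatives, 7 moved by more than the SD of their arrays and 10 changed sign, all of genes within 0.05 log2 of control. No paired analysis was possible because each group had 1 array. The cause of these shifts was not tested.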
